A study of Mus musculus with 12 samples.

Results

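The BCL2 family decides at the mitochondrion whether a stressed cell lives or dies, and 10 of its genes were followed here in retinas of mice after a short rise in intraocular pressure (IOP). The 10 genes were taken by name from the gene table. They comprise the guardians Bcl2, Bcl2l1 and Mcl1, the pore-forming effectors Bax and Bak1, and the BH3-only genes Bcl2l11, Bid, Bad, Bmf and Hrk. All 10 were found among the 24340 rows of the table, and all were among the 18509 rows that were above 0 in at least 1 library.

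The 12 retinas came from 6 mice, each of which gave 1 treated and 1 control eye. Every mouse carried the p16-3MR transgene, in which the p16Ink4a regulatory region drives a fusion of a luciferase from Renilla, the red fluorescent protein mRFP and the thymidine kinase of a herpes simplex virus. Cells that express the kinase turn ganciclovir (GCV) into a toxic product, so that p16Ink4a-expressing cells can be removed. Mice were 12 to 16 weeks old. The IOP of 1 eye was held at 85 to 90 mm Hg for 60 min with a saline infusion into the anterior chamber, and the other eye was left as the control. Mice 3, 4 and 6 supplied the groups ctrl and IOP and were not given GCV, the study's controls being sham-treated with PBS. Mice 1, 2 and 5 supplied the groups ctrl-GCV and IOP-GCV and were given GCV intraperitoneally at 25 mg/kg daily. All retinas were collected on day 3. Values are FPKM (fragments per length of transcript and size of library), so that levels of different genes can be set side by side.

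The guardians hold the effectors in check. When BH3-only proteins are induced or activated, they bind the guardians or activate the effectors directly, BAX and BAK then open the outer mitochondrial membrane, and the released cytochrome c starts the caspase cascade. In retinal ganglion cells (RGCs), the neurons whose axons form the optic nerve and which are lost in glaucoma, axonal injury is known to kill mainly through BAX, and the adult neurons lean on BCL-XL, the product of Bcl2l1, for survival. Much of the regulation of the family lies in protein binding, phosphorylation and cleavage, none of which is seen in RNA.

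The libraries were of retina by their markers, with all 7 of 7 rod genes above 0 in each of the 12. By an estimate from low values, made after these had been seen, the libraries held about 4000000 to 9070000 fragments. The estimate rests on annotated transcript lengths and on values that may be scaled between libraries, so it gives relative depth rather than counts. The IOP retina of mouse 6 was the shallowest, and it also had the fewest rows above 0, at 14844 against 16044 to 16593 in the other libraries. Crystallins and other lens genes stood apart in the ctrl-GCV retina of mouse 1, where the 10 lens markers summed to 6807 FPKM, against 6.18 to 126.4 FPKM in the other control retinas and 100.0 to 6371 FPKM in IOP retinas. Of 12 RGC markers 10 fell with IOP over all 6 mice, and 9 of 11 microglial, 8 of 10 leukocyte, 6 of 6 reactive glial and 6 of 10 lens markers rose (limma, adjusted p under 0.05), where 12.2% of all genes were called. With the mouse as a block, where 7.3% of all genes were called, 4 RGC and 8 lens markers were. The count for RGC markers was 12 without the IOP retina of mouse 4 (24.5% of all genes), 9 without that of mouse 1 (11.8%) and 2 to 5 without any other single library (4.51% to 10.8%). The count for lens markers was 9 without the IOP retina of mouse 3 (6.97%), 7 without the control retina of mouse 1 (6.12%), 5 without the IOP retina of mouse 4 (24.5%), 0 without any other control retina (4.51% to 5.37%) and 1 to 3 without any other IOP retina (6.72% to 11.8%). None of 7 rod markers and none of 6 pigment epithelium markers was called, with Nrl at -0.53 (adjusted p = 0.0776) and Rpe65 at -1.13 (adjusted p = 0.227) on the log2 scale.

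In uninjured retinas the family covered a range of levels from about 0.1 to 40 FPKM. Over the 6 control retinas, Bcl2l1 was the most abundant member with 40.5 ± 4.7 FPKM (SD, n = 6), and it lay above the next gene in all 6 retinas. Mcl1 followed at 29.5 ± 1.7 FPKM, Bax at 28.4 ± 1.5 FPKM and Bad at 26.7 ± 2.2 FPKM. The ranges of Mcl1 and Bax overlapped, as did those of Bax and Bad, so these neighbours were not separated beyond their spread. Bak1, at 8.52 ± 0.87 FPKM, was separate from the genes above and below it. Bcl2l11, Bcl2 and Bmf lay together at 3.74 ± 0.30, 3.60 ± 0.46 and 3.43 ± 0.53 FPKM, with overlapping ranges. Bid stood at 1.85 ± 0.35 FPKM, and Hrk was barely detected at 0.0985 ± 0.0418 FPKM. Bcl2 itself was thus the least abundant of the 3 guardians among the members, and in each control retina Bcl2l1 exceeded it by 8.68 to 16.1 times.

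**Figure D1:**
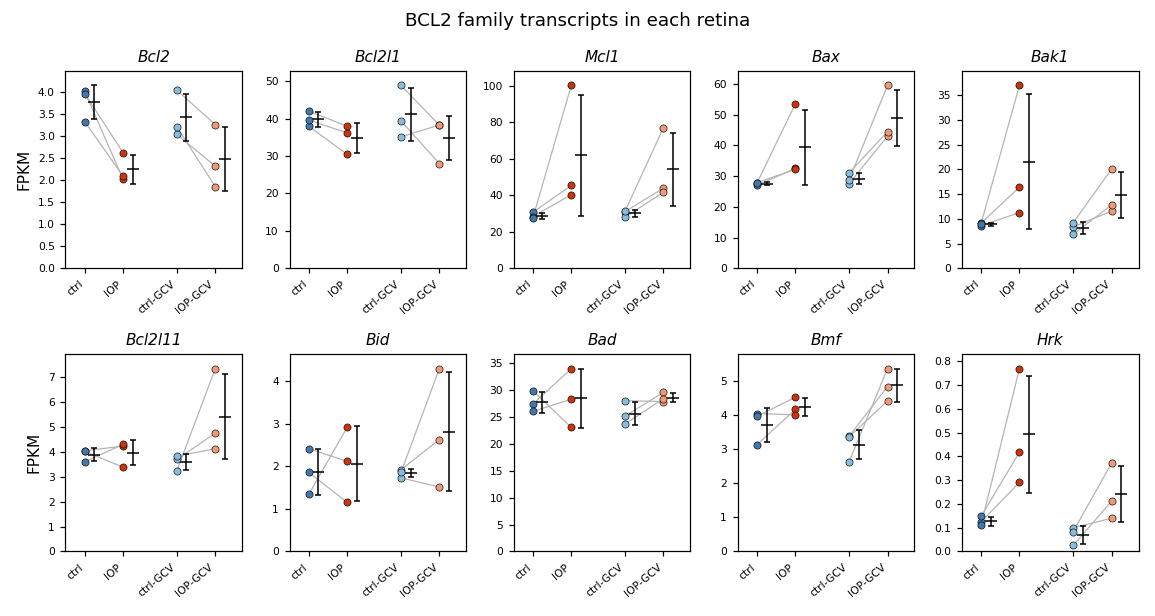
FPKM (vertical axis, from 0) of the 10 members in each retina, by group, with grey lines joining the eyes of a mouse and black bars giving the mean ± SD of 3 retinas. Bax, Bak1 and Mcl1 lay higher in every IOP retina than in any control retina, Bcl2 lay lower in the IOP eye of all 6 pairs, and the IOP retinas of mice 5 and 6 carried the highest Mcl1 and Bak1 values.

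The first question was which members changed with IOP, and the pooled comparison over all 6 mice gave the only calls. On the log2(FPKM + 1) scale 5 of 10 members were called by limma at an adjusted p under 0.05, against 12.2% of all genes tested. Mcl1, Bax, Bak1 and Hrk were higher, where 6.76% of all genes were called higher, and Bcl2 was lower, where 5.44% were called lower. The median change of the 10 members was 0.27, and that of all genes was 0.01. In bulk retina, a change in the number of cells of a type and a change of RNA per cell cannot be told apart. When the mouse was added to the fit as a block, which pairs the eyes, only Bax of the 10 was called, against 7.3% of all genes.

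The calls depended on single libraries. Without any one of the control retinas of mice 1, 3, 4, 5 and 6, no member was called, while 4.51% to 6.12% of all genes were. The count was 1 (Bax) without the control retina of mouse 2 or the IOP retina of mouse 5, where 4.98% and 6.72% of all genes were called. It was 3 (Bax, Mcl1 and Hrk) without the IOP retina of mouse 2 or mouse 3 (10.8% and 6.97% of all genes), and 6 without the IOP retina of mouse 4, when Bmf was added and 24.5% of all genes were called. It stayed at 5 without the shallow IOP retina of mouse 6 or the IOP retina of mouse 1 (10.2% and 11.8% of all genes). The direction of the 5 called members was the same under each of these exclusions.

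Among the effectors, Bax and Bak1 were both higher after IOP. Bax stood at 27.8, 27.0 and 27.9 FPKM in the ctrl retinas of mice 3, 4 and 6 and at 53.5, 32.5 and 32.2 FPKM in their IOP retinas. With GCV, it stood at 27.5, 31.1 and 28.8 FPKM in the control retinas of mice 1, 2 and 5 and at 43.0, 44.5 and 59.6 FPKM in the IOP retinas. Every IOP retina lay above every control retina, with mice 3 and 5 the highest and mice 4 and 6 just past the control range. Over 6 retinas each, Bax averaged 28.4 ± 1.5 FPKM in control and 44.2 ± 11.0 FPKM in IOP eyes, and the ratio within a mouse ran from 1.15 to 2.07. The fitted change was 0.59 (SE 0.13, limma adjusted p = 0.0224), and with the mouse as a block the adjusted p was 0.0449. The call was lost without the control retina of any mouse but mouse 2, and over the 12 exclusions of 1 library the adjusted p of Bax ran from 0.00832 to 0.0596.

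BAK, the second effector, sits in the mitochondrial membrane already in healthy cells. Bak1 was measured at 9.11, 8.61 and 8.99 FPKM in ctrl and at 16.4, 11.3 and 37.0 FPKM in IOP retinas of mice 3, 4 and 6. In mice 1, 2 and 5 it was at 8.37, 6.86 and 9.20 FPKM in ctrl-GCV and at 11.6, 12.8 and 20.1 FPKM in IOP-GCV. The groups did not overlap, and the IOP retina of mouse 6 was by far the highest while that of mouse 4 was the lowest of the IOP retinas. The change was 0.89 (SE 0.25, limma adjusted p = 0.0438, or 0.055 with the block), with a ratio within a mouse of 1.31 to 4.12. Leaving out the IOP retina of mouse 6 lowered the change to 0.66, and the gene was still called. Leaving out any of the 6 control retinas, or the IOP retina of mouse 2, 3 or 5, ended its call, with adjusted p up to 0.105. The annotation places the Ggnbp1 gene on the opposite strand over Bak1. The kit marks strand, but the strand setting of the counting is not given in the sources used here, so reads of both genes may be mixed.

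Among the guardians the 3 genes did not move together. Mcl1 encodes a short-lived guardian whose level follows synthesis closely. It stood at 30.7, 28.4 and 27.5 FPKM in ctrl and at 45.4, 40.3 and 100.3 FPKM in IOP retinas of mice 3, 4 and 6. With GCV it stood at 31.1, 28.0 and 31.3 FPKM in control and at 43.9, 41.6 and 77.1 FPKM in IOP retinas of mice 1, 2 and 5. No IOP retina fell within the control range, 4 of the 6 lay between 40.3 and 45.4 FPKM, and those of mice 5 and 6 were far above. The mean rose from 29.5 ± 1.7 to 58.1 ± 24.8 FPKM (SD, n = 6), a fitted change of 0.87 (SE 0.22, limma adjusted p = 0.0358, or 0.0553 with the block). Its call was lost without any of the 6 control retinas or the IOP retina of mouse 5, with adjusted p up to 0.0869, and the change ran from 0.66 to 0.99 over the exclusions.

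Bcl2, the founding guardian of the family, was the only member called lower. In mice 3, 4 and 6 it was at 4.02, 3.33 and 3.97 FPKM in ctrl and at 2.02, 2.09 and 2.63 FPKM in IOP retinas. In mice 1, 2 and 5 it was at 4.05, 3.04 and 3.22 FPKM in ctrl-GCV and at 3.27, 2.32 and 1.86 FPKM in IOP-GCV. It was lower in the IOP eye of all 6 mice, but the IOP retina of mouse 1 lay above the control retinas of mice 2 and 5, so the groups overlapped. The ratio of IOP to control within a mouse was 0.503 to 0.808, and the change was -0.46 (SE 0.13, limma adjusted p = 0.0455, or 0.0645 with the block). It kept its call only without the IOP retina of mouse 1, 4 or 6, and without 1 of the other 9 libraries the adjusted p reached up to 0.0978. Bcl2 overlaps Mir3473f and Gm37053 on its own strand and D630008O14Rik on the opposite strand, so reads may be mixed here as well.

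Bcl2l1 was not called. As a gene-level value it adds up the anti-apoptotic BCL-XL and the pro-apoptotic short form, which this table cannot separate. It was at 37.9, 39.6 and 42.0 FPKM in ctrl and at 30.4, 36.2 and 37.9 FPKM in IOP retinas of mice 3, 4 and 6, and at 35.1, 48.8 and 39.4 FPKM in ctrl-GCV and 38.3, 38.2 and 28.0 FPKM in IOP-GCV of mice 1, 2 and 5. The IOP eye was the lower one in 5 of 6 mice and the groups overlapped. The change was -0.21, with a 95% confidence interval of -0.45 to 0.03 (limma adjusted p = 0.213).

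The balance between members can also be read within each retina, where FPKM of 2 genes share the library. The ratio of Bax to Bcl2 was 6.91, 8.10 and 7.03 in the ctrl retinas of mice 3, 4 and 6 and 26.5, 15.5 and 12.2 in their IOP retinas. It was 6.81, 10.2 and 8.96 in ctrl-GCV and 13.2, 19.2 and 32.1 in IOP-GCV retinas of mice 1, 2 and 5. All 6 IOP retinas lay above all 6 control retinas. The ratio of Mcl1 to Bcl2l1 was below 1 in every control retina, from 0.573 to 0.885, and above 1 in every IOP retina, from 1.09 to 2.76. Mcl1 made up 35.0% to 44.2% of the summed FPKM of Bcl2, Bcl2l1 and Mcl1 in control retinas and 50.7% to 72.1% in IOP retinas. With Bcl2l2, an abundant guardian outside the 10 members, in the sum, the share of Mcl1 was 20.4% to 24.9% in control and 29.7% to 51.8% in IOP retinas. These ratios were computed after the values of the single genes had been seen and are given as a description, with no test.

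**Figure D2:**
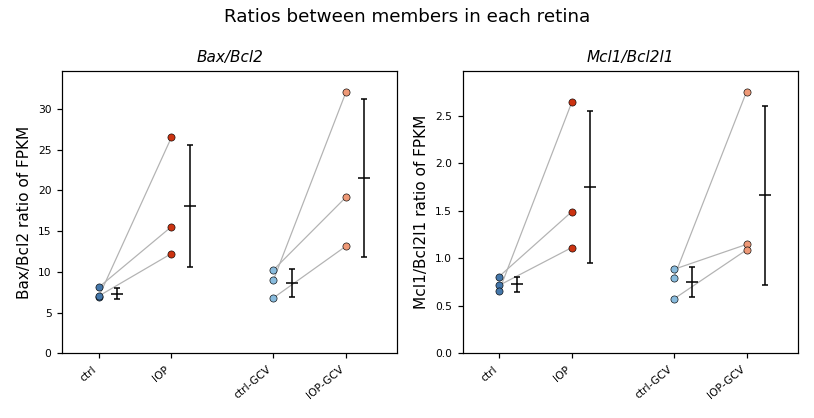
Ratio of Bax to Bcl2 (left) and of Mcl1 to Bcl2l1 (right) in FPKM for each retina, by group, with lines joining the eyes of a mouse and bars giving the mean ± SD of 3 retinas. Control retinas lay at 6.81 to 10.2 and at 0.573 to 0.885, and every IOP retina lay above them, at 12.2 to 32.1 and at 1.09 to 2.76.

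Among the 5 BH3-only genes, Hrk alone was called. It encodes harakiri, a neuronal BH3-only protein that binds BCL-XL. In mice 3, 4 and 6 it was at 0.124, 0.148 and 0.110 FPKM in ctrl and at 0.291, 0.417 and 0.769 FPKM in IOP retinas. In mice 1, 2 and 5 it was at 0.0255, 0.0998 and 0.0840 FPKM in ctrl-GCV and at 0.212, 0.140 and 0.372 FPKM in IOP-GCV. The IOP eye was the higher one in all 6 mice, but the IOP retina of mouse 2 lay within the control range. By the depth estimate, which gives relative depth rather than counts, these values stood for roughly 1 to 7 fragments in a control and 5 to 19 in an IOP retina. The change was 0.30 (SE 0.08, limma adjusted p = 0.0343, or 0.0621 with the block) and is an understatement on this scale, where 1 FPKM is added. With 0.1 FPKM added it was 1.14 (limma adjusted p = 0.0224). Its call was lost without any of the 6 control retinas or the IOP retina of mouse 5, with adjusted p up to 0.0764. Hrk never reached 1 FPKM and was left out when only genes with at least 1 FPKM in 3 or more libraries were tested. In that fit 5 of the other 9 members were called, with Bmf added, against 19.7% of genes.

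Bmf, a BH3-only sensor tied to the cytoskeleton in healthy cells, came closest to the threshold among those not called. It was at 3.14, 4.05 and 3.97 FPKM in ctrl, 4.18, 4.01 and 4.53 FPKM in IOP, 3.39, 3.37 and 2.64 FPKM in ctrl-GCV and 4.85, 4.42 and 5.37 FPKM in IOP-GCV retinas, in the order of mice given above. The values were higher in the IOP eye of 5 of 6 mice and slightly lower in that of mouse 4, and only the IOP retina of mouse 4 lay inside the control range. The change was 0.33 (SE 0.11, limma adjusted p = 0.0626, or 0.144 with the block).

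Bcl2l11 encodes BIM, which binds all guardians and can activate BAX. It was at 4.05, 3.61 and 4.03 FPKM in ctrl, 4.24, 4.31 and 3.39 FPKM in IOP, 3.70, 3.84 and 3.24 FPKM in ctrl-GCV and 4.75, 4.13 and 7.35 FPKM in IOP-GCV retinas. The IOP-GCV retina of mouse 5 was the highest, and the groups overlapped through mouse 6, whose IOP eye was the lower one. The change of 0.24 was not called (95% confidence interval -0.06 to 0.53, limma adjusted p = 0.268).

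Bid, which links caspase-8 to the mitochondrion once cleaved, and Bad, which is held inactive by phosphorylation, varied without a common direction. Bid was at 1.34, 2.42 and 1.86 FPKM in ctrl, 2.92, 2.12 and 1.15 FPKM in IOP, 1.92, 1.73 and 1.86 FPKM in ctrl-GCV and 2.63, 1.51 and 4.30 FPKM in IOP-GCV retinas, higher in the IOP eye of 3 mice and lower in that of 3. Bad was at 27.4, 29.9 and 26.0 FPKM in ctrl, 34.0, 23.1 and 28.3 FPKM in IOP, 25.2, 28.0 and 23.7 FPKM in ctrl-GCV and 29.6, 27.8 and 28.4 FPKM in IOP-GCV retinas. The groups overlapped for both genes. The changes were 0.21 for Bid (95% confidence interval -0.24 to 0.67, limma adjusted p = 0.527) and 0.09 for Bad (-0.12 to 0.29, limma adjusted p = 0.561). Bid overlaps Bcl2l13 and Gm17812 on the opposite strand and Gm44260 on its own, and Bad overlaps Gpr137 on the opposite strand.

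Set side by side, 3 of 10 members (Bax, Bak1 and Mcl1) did not overlap between the 6 IOP and the 6 control retinas, against 7.9% of all genes. Another measure, the same direction in all 6 eye pairs, was met by 5 of 10 members (the 5 called ones), and by 20.8% of all genes. The IOP retinas were also more variable among themselves. The coefficient of variation over 6 retinas was larger in IOP than in control eyes for 9 of 10 members, Bmf being the exception, as it was for 86.9% of the 12908 genes averaging 1 FPKM or more. For Mcl1 it was 5.78% in control and 42.8% in IOP retinas, and for Bak1 10.2% and 54.0%.

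**Figure D3:**
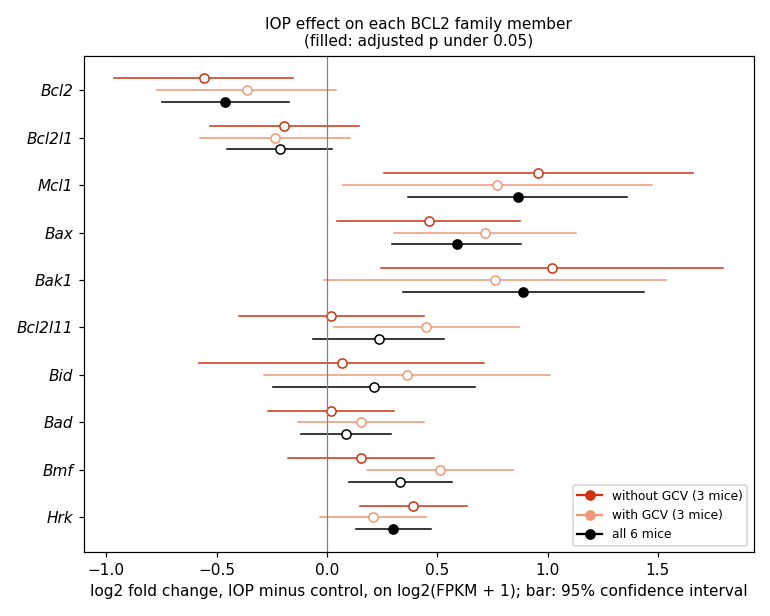
Fitted log2 fold change of each member (IOP minus control, on log2(FPKM + 1)) with its 95% confidence interval, for mice without GCV, with GCV and all 6. Filled points have a limma adjusted p under 0.05, which 5 members reached over all 6 mice and none within 3 mice.

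Within either set of 3 mice no member was called. Without GCV, 0 of 10 members passed limma at an adjusted p under 0.05, where 1.65% of all genes did, and 5 members (Bcl2, Mcl1, Bax, Bak1 and Hrk) had an unadjusted p under 0.05, where 18.9% of all genes did. With GCV the count was also 0, against 1.8%, and 4 members (Bcl2l11, Mcl1, Bax and Bmf) had an unadjusted p under 0.05, against 19.2%. The smallest adjusted p was 0.116 without GCV, for Hrk, and 0.0864 with GCV, for Bax. Without the IOP retina of mouse 4, Bak1 at 1.38 and Mcl1 at 1.20 were called in mice without GCV, where 13.5% of all genes were. The IOP retina of mouse 6 had the highest Bak1 and Mcl1, at 37.0 and 100.3 FPKM. Without it no member was called in these mice, where 1.09% of all genes were. Without the IOP retina of mouse 3, which enters only through the shared spread, Bax was called in mice with GCV, where 2.54% of all genes were.

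The second question was whether GCV changed the response to IOP. Fitted changes without and with GCV were 0.46 and 0.72 for Bax, 1.02 and 0.76 for Bak1, 0.96 and 0.77 for Mcl1, -0.56 and -0.36 for Bcl2, and 0.39 and 0.21 for Hrk. For Bcl2l11 they were 0.02 and 0.45, and for Bmf 0.16 and 0.51. Single mice weighed on these values. Without GCV the change within a mouse ran from 0.35 to 1.93 for Bak1 and 0.49 to 1.83 for Mcl1, highest in mouse 6. For Bax it ran from 0.20 to 0.92, highest in mouse 3. With GCV the ranges were 0.42 to 1.05 for Bak1, 0.49 to 1.27 for Mcl1 and 0.50 to 1.02 for Bax. For Bcl2l11 the range with GCV was 0.09 to 0.98, and all 4 were highest in mouse 5. In the test of the difference itself 0 of 10 members were called, as were 0% of all genes (limma), and no member had an unadjusted p under 0.05, against 1.93% of all genes. The intervals were wide. That for Bax ran from -0.33 to 0.84, that for Bak1 from -1.36 to 0.84 and that for Bcl2l11 from -0.16 to 1.02.

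GCV alone gave no call in this family either. Between IOP-GCV and IOP retinas 0 of 10 members and 0% of all genes were called by limma, and only Hrk had an unadjusted p under 0.05 (-0.26, limma adjusted p = 0.819), where 4.18% of all genes did. Between ctrl-GCV and ctrl retinas 0 members and 0% of all genes were called, and no member had an unadjusted p under 0.05, against 1.59%. In control retinas the fitted differences with GCV lay between -0.19 for Bmf and 0.08 for Bax. These comparisons are between different mice.

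Several marker lists moved with IOP alongside the members. The 12 RGC markers summed to 1038 to 2089 FPKM in control and 279 to 1122 FPKM in IOP retinas, and the IOP retina of mouse 4 had the highest of the latter and the lowest Bak1 and Mcl1 values. The 10 leukocyte markers, with Lyz2 and S100a8 among them, summed to 10.6 to 56.1 FPKM in control and 221 to 2702 FPKM in IOP retinas. The 11 microglial markers went from 73.9 to 114 FPKM up to 279 to 776 FPKM. The IOP retinas of mice 5 and 6, with the highest Mcl1 and Bak1, also had the highest sums of both lists among IOP retinas, at 2702 and 795 FPKM for leukocytes and 776 and 572 FPKM for microglia. Those of mice 3 and 1 followed, at 739 and 660 FPKM for leukocytes and 498 and 533 FPKM for microglia. Their Mcl1 stood at 45.4 and 43.9 FPKM, against 77.1 and 100.3 FPKM in mice 5 and 6. The IOP retina of mouse 6 had the lowest Bax of the IOP retinas, at 32.2 FPKM. The IOP retinas of mice 5 and 3, with the highest Bax values, had lens marker sums of 4958 and 100.0 FPKM, the latter the lowest among IOP retinas. The part of these cells and tissues in the values of the members was not tested.

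The genes called in the family can be shown from the start of their transcripts. RefSeq promoter windows on GRCm38.p6 were found for all 10 members, 16 windows in all, and the 250 bases before the start were searched on both strands. Those of Bax, Mcl1 and Bcl2 are printed because they belong to a called effector and to the guardians that moved in opposite directions. For Mcl1 the bases just after the RefSeq start were not found in a GENCODE transcript of the gene. Its window ends at 95658720, while GENCODE starts the gene at 95658788, so the start used for Mcl1 is uncertain. Capitals mark GC boxes (GGGCGG, to which SP1 binds) and the p53 half-site.
Bax, chr7:45466899-45467148, minus strand: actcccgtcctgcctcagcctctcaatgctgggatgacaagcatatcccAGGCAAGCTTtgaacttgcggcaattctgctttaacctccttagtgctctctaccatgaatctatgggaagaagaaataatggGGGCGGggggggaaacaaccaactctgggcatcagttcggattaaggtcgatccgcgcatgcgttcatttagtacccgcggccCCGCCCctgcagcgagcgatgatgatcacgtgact
Mcl1, chr3:95658471-95658720, plus strand: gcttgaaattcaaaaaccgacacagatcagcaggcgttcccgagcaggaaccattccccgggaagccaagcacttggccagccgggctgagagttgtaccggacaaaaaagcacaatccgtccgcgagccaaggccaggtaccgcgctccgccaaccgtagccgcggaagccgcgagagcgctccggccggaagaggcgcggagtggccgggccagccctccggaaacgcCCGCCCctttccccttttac
Bcl2, chr1:106714291-106714540, minus strand: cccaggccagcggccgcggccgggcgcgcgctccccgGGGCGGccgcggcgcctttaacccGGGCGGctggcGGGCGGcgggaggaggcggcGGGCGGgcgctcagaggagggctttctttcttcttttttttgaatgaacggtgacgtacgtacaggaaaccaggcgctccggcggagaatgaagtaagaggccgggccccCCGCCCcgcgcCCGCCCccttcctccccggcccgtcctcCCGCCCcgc

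Bcl2 held 7 GC boxes, Bax 2 and Mcl1 1, and 32.7% of 32851 promoter windows of this length held at least 1. The Bak1 window held none and the Hrk window 2. A p53 half-site was found in the Bax window, 192 to 201 bases before the start, and in 1 of 3 Bmf windows, and 7.1% of all windows held one. A FOXO motif (TGTTTAC) was found in 1 of 2 Bcl2l11 windows, against 3.2% of all, and an NF-kB motif in 1 of 3 Bcl2l1 windows, against 3.9%. No member's window held a STAT motif (TTCNNNGAA, 7.0% of all), an AP-1 motif (TGANTCA, 6.7%) or a CRE (TGACGTCA, 1.5%). A match is letters only and does not show binding. The Bax window overlaps the predicted gene Gm45808, which also overlaps Bax on the same strand, so reads of both genes may be mixed.

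The rest of the family and the pathway around it were taken from lists. Their counts over all 6 mice are to be read against the 12.2% of all genes that limma called. Of 15 other BCL2 family genes 4 rose and none fell (limma, adjusted p under 0.05), and their median change was 0.37. The largest change was in Bcl2a1b, a copy of the leukocyte and NF-kB target guardian A1. It was at 0.433, 0.734 and 0.959 FPKM in ctrl, 16.6, 12.6 and 38.1 FPKM in IOP, 0.440, 0.436 and 0.975 FPKM in ctrl-GCV and 14.7, 7.26 and 31.1 FPKM in IOP-GCV retinas. Every IOP retina lay far above every control retina, and mice 5 and 6 were again the highest. Its change was 3.48 (SE 0.34, limma adjusted p = 0.000427), and it was called in mice without GCV (3.64, limma adjusted p = 0.0107) and with GCV (3.33, limma adjusted p = 0.00959). Bcl2a1d, listed at 0 in 5 of 6 control retinas, was at 1.19 to 4.92 FPKM in IOP retinas, and Bcl2a1a, named after its values were seen, was also called. The A1 genes are near-identical copies, so the split of reads among them is uncertain.

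Bik, a BH3-only gene, was at 0 to 0.339 FPKM in control and 0.476 to 3.81 FPKM in IOP retinas, a change of 1.24 (SE 0.22, limma adjusted p = 0.00824). Bcl2a1b, Bcl2a1d and Bik were called under all 12 exclusions of 1 library and with the mouse as a block, while each of the 5 members lost its call under some of the exclusions. The guardian Bcl2l2, named here after its values were seen, had 56.1 ± 2.3 FPKM in ctrl, 49.6 ± 4.6 FPKM in IOP, 54.8 ± 3.0 FPKM in ctrl-GCV and 53.6 ± 7.2 FPKM in IOP-GCV retinas (SD, n = 3) and was not called over all 6 mice (-0.11, limma adjusted p = 0.397). Chosen in the same way, the p53 targets Pmaip1 and Bbc3 stayed short of the threshold at 0.94 (limma adjusted p = 0.0506) and 0.62 (limma adjusted p = 0.0919), and so did the effector-like gene Bok at -0.84 (limma adjusted p = 0.0557, or 0.0368 with the block).

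Downstream of the mitochondrion the share of genes called was near that of all genes. Of 20 genes of the apoptosome, its inhibitors, the executioner caspases and the released factors, 2 rose and none fell (12.2% of all genes were called), with a median change of 0.01. Leaving out any control retina but that of mouse 6, or the IOP retina of mouse 3, left 1 call, and leaving out the IOP retina of mouse 4, where 24.5% of all genes were called, gave 4. Birc5, which encodes survivin and is best known as a gene of dividing cells, went from 0 to 0.805 FPKM in control to 1.07 to 3.91 FPKM in IOP retinas (1.31, SE 0.23, limma adjusted p = 0.00841). Casp6, an executioner caspase, changed by 0.81 (SE 0.19, limma adjusted p = 0.0268, or 0.0364 with the block). The call of Casp6 was lost, with adjusted p up to 0.0717, without the control retina of any mouse but mouse 6, and without the IOP retina of mouse 3.

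Of 10 genes of the death receptor arm, which reaches the family through Bid, 3 rose and none fell, with a median change of 0.66. They were the TNF receptor Tnfrsf1a (1.51, SE 0.16, limma adjusted p = 0.000774), the kinase Ripk1 (0.96, SE 0.19, limma adjusted p = 0.0145) and the initiator caspase Casp8 (1.39, SE 0.33, limma adjusted p = 0.0269). Tnfrsf1a was at 3.81 to 6.68 FPKM in control and 10.0 to 22.4 FPKM in IOP retinas. Tnfrsf1a and Ripk1 were called under all 12 exclusions. Casp8 lost its call without the control retina of any mouse but mouse 6, with adjusted p up to 0.0715.

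Of 20 genes for regulators of BCL2 family genes, 6 rose and 2 fell (12.2% of all genes were called), with a median change of 0.20. With the mouse as a block 5 rose and 1 fell (7.3% of all genes called). The total was 5 when the control retina of mouse 3, 4, 5 or 6 was left out (4.51% to 5.37%), against 6 to 9 when any other library was (4.98% to 24.5%). Stat3, which acts on Mcl1 and Bcl2l1 in other tissues, was at 9.91 to 14.8 FPKM in control and 33.2 to 52.1 FPKM in IOP retinas (1.77, SE 0.11, limma adjusted p = 0.000106). Bcl3, a nuclear partner of NF-kB, changed by 4.04 (SE 0.36, limma adjusted p = 0.000332), and Atf3, a stress factor of injured neurons, by 2.03 (SE 0.27, limma adjusted p = 0.00184). All 3 were called within mice without GCV, within mice with GCV and, over all 6 mice, under all 12 exclusions. With the mouse as a block Atf3 kept its call over all 6 mice (limma adjusted p = 0.0139) but lost it without GCV (0.0971) and with GCV (0.0713), while Stat3 and Bcl3 were called in all 3 comparisons. The others called, named after their values were seen, were Rela, Jun and Trp53, which rose, and Map3k13 and Mapk10, which fell. Rela and Jun were called under all 12 exclusions. Trp53 was called under 5 of the 12 and had an adjusted p of 0.0527 with the block (limma), Map3k13 under 7 (0.058 with the block) and Mapk10 under 3 (0.045 with the block). Map3k13 and Mapk10 encode neuronal kinases of the JNK cascade.

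**Figure D4:**
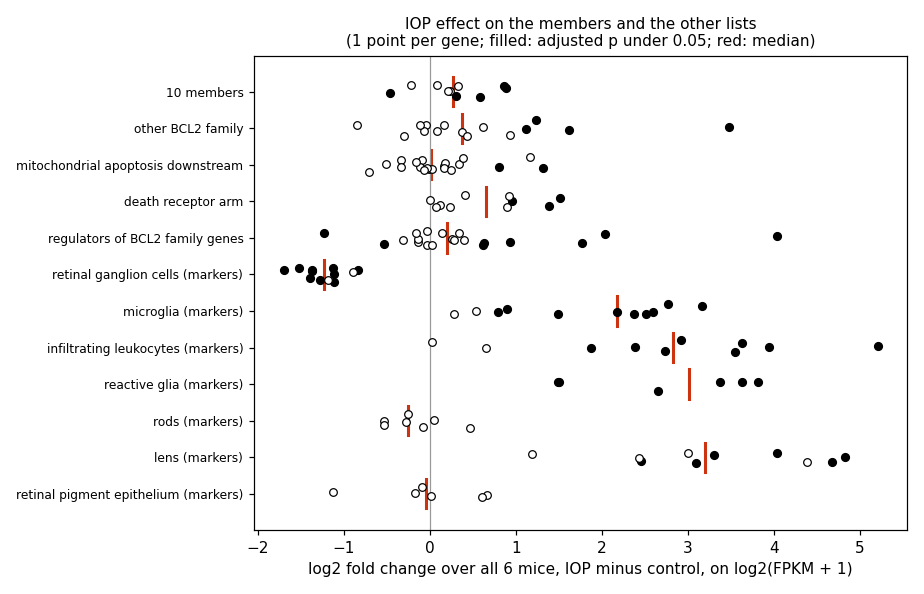
Fitted log2 fold change over all 6 mice (IOP minus control, on log2(FPKM + 1)) of each gene in the 10 members, 4 pathway lists and 7 marker lists, with filled points at a limma adjusted p under 0.05 and red lines at list medians. The members spread from -0.46 to 0.89 with a median of 0.27, while microglial and leukocyte markers had medians of 2.18 and 2.82 and RGC markers one of -1.23.

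The pattern of Bax over the libraries was closest to that of Atp6v0e, Ap1b1, Ogfr, Gabarap and Cela1, with Pearson's r of 0.97, 0.97, 0.96, 0.96 and 0.96 over 12 libraries on log2(FPKM + 1), among 12907 genes averaging 1 FPKM or more. The 12 points share libraries, depth and the eyes of 6 mice, and 6 of them were IOP retinas, so these values are a description. Atp6v0e, a subunit of the vacuolar proton pump, was at 23.0 ± 2.3, 39.1 ± 18.5, 24.0 ± 1.5 and 54.3 ± 15.6 FPKM (SD, n = 3) in ctrl, IOP, ctrl-GCV and IOP-GCV. Among the members, r with Bax was 0.75 for Bcl2l11, 0.70 for Bmf, 0.66 for Bid, 0.58 for Mcl1, 0.54 for Bad, 0.51 for Bak1, -0.69 for Bcl2l1 and -0.78 for Bcl2. Hrk averaged under 1 FPKM and was not among these genes.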

How the data were processed

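Total RNA from 12 retinas of 6 mice was made into stranded mRNA libraries and sequenced as paired ends of 50 bases. The authors deposited a table of FPKM values, a unit that was inferred from the values. The submitters' processing notes name TopHat2, Bowtie2, Cufflinks and Cuffdiff and the build mm10, without versions, while the study's methods describe counting on RefSeq exons with HOMER. Which of these made the FPKM, and how libraries were scaled, is not given in the sources used here. No sample column was left unused (0), and 2 row names occurred more than once.

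The table holds no counts, so log2(FPKM + 1) was modelled per group (4 groups) by limma 3.58.1 under R 4.3.3. The variance trend was used, and p-values were adjusted by Benjamini-Hochberg over 18509 rows with a threshold of 0.05. The eyes of a mouse carry its number in the labels, so the numbers pair the samples, and deviations from group means correlated at -0.117 to 0.388 between the eyes of a mouse over 12910 genes. The fit with the mouse as a block was an alternative. The others were adding 0.1 in place of 1, dropping rows that had fewer than 3 libraries at 1 FPKM, fitting the compared groups alone, median-ratio scaling, no trend, each library left out and, added after the data had been seen, an adjusted p under 0.1. The fit was tested on simulated data with known changes, drawn with independent noise and the same spread in all groups. The simulation thus leaves aside the link between the eyes of a mouse and the larger spread of IOP retinas. For an estimate of depth, the lowest values of 1713 genes with 1 transcript of 1500 bases or more were used, of which 78.4% to 84.3% came within 0.15 of whole fragments. Members and lists were chosen with earlier results of these data known. Named genes are all 10 members, and of each other list up to 3 called genes with the smallest adjusted p or, where none was called, the gene with the smallest p. Marker lists are given by their counts and sums. Likeness to Bax, the member with the smallest p, was ranked by Pearson's r. Further software was Python 3.11.15 with its libraries matplotlib 3.10.9, numpy 2.4.6 and pandas 2.3.3. Genes were located with GENCODE M21.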

Additional observations from a re-analysis of the deposited data

How the results depend on the processing

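The count of members called over all 6 mice was 5 with a pseudocount of 0.1 (12.6% of all genes called), with the filter on low values (19.7%, with 9 members tested) and with median-ratio scaling (12.5%), and 6 without the variance trend (12.4%) and at an adjusted p under 0.1 (22.3%). With the mouse as a replicate block it was 1 (7.3%), and the pairing changed no call of a member in the other comparisons. When each library was left out, the count ran from 0 to 6 over all 6 mice (4.51% to 24.5% of all genes), from 0 to 2 in mice without GCV (0.125% to 13.5%) and from 0 to 1 in mice with GCV (0.417% to 5.67%). At an adjusted p under 0.1 the count in mice with GCV was 1 (Bax), against 4.21% of all genes. The counts for the difference between the IOP effects and for both GCV comparisons were 0 under all alternatives run. The alternatives on the separate effects of IOP turned the sign of 3 members in mice without GCV, none of which was called. When each library was left out, Bcl2l11 ran from -0.0285 to 0.109, Bid from -0.132 to 0.30 and Bad from -0.114 to 0.156. The 5 members called over all 6 mice kept their direction under all alternatives. The cause of these shifts was not tested. Median-ratio scaling could change little, because its log2 factors lay between -0.00192 and 0.0197. With an estimated 4000000 to 9070000 fragments in a library, Hrk is the member most limited by depth.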
